A study of Mus musculus with 3 samples.

Results

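T cells of the mouse pancreas were taken here as barcodes that carried at least 3 UMIs (unique molecular identifiers, each counting 1 captured RNA molecule) from at least 2 of the 6 genes Cd3d, Cd3e, Cd3g, Trac, Trbc2 and Lck. Barcodes with a UMI of the B cell genes Cd79a or Ms4a1, or with more than 1 UMI of the macrophage genes C1qa and C1qb, were left out. The rule found 184 T cells among 36630 barcodes that passed a filter of 500 UMIs, 200 genes and at most 20% mitochondrial UMIs, out of 41134 deposited barcodes. The sedentary library labelled none gave 159 of them, the sedentary diabetic library 14 and the diabetic library with exercise 11.

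RNA of dissociated pancreas was counted in 3 libraries built with the 10x Chromium 3-prime kit. The design text describes treadmill training of male db/db mice, a strain made obese and diabetic by a defective leptin receptor, at an age of 6 weeks. An age at the start of training was recorded for the exercise library alone, and none for the diabetic sedentary library. Genotype and age are not stated for the library labelled none, nor is the number of animals pooled for any library. With 1 library per group no comparison has a replicate check: intervals below are exact 95% intervals that cover counting error only, UMIs of 1 cell are not independent of each other, and a difference between conditions cannot be told apart from one between 3 libraries.

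T cells recognise antigen through a receptor of paired alpha and beta chains, or gamma and delta chains, that signals through the Cd3 proteins and the kinase Lck. Naive and central memory T cells circulate between blood and lymphoid organs, guided by homing receptors such as the chemokine receptor Ccr7 and held in a resting state by factors such as Lef1 and Tcf7. T cells that have settled in tissue lose those genes and carry others, among them the chemokine receptor Cxcr6, while regulatory T cells, which restrain other immune cells, depend on the factor Foxp3.

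The deposited libraries summed to 54128454 UMIs for none, 80185752 for diabetic sedentary and 45209034 for diabetic exercise, with medians of 4164, 5108 and 1989 UMIs per filtered barcode. T cells were of similar total depth in the 3 libraries, with median UMIs of 3439, 3466 and 3981, and summed to 617042, 62205 and 42202 UMIs. Digestive enzyme RNA of acinar cells made up a median of 45.8%, 28.6% and 32.9% of the UMIs in a T cell, over a list of 47 acinar genes. Outside that list the median depth was lower in none, at 1881 UMIs against 2393.5 and 2273. Median genes per T cell were 812, 1182.5 and 1132, so detection shares below were not taken at equal depth. The median mitochondrial share of a T cell was 1.06%, 4.64% and 5.02%. Between 32 and 61 barcodes were shared by any pair of deposited libraries, none of them a T cell of both.

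The selected barcodes carried T cell genes that the rule had not used. Of 19 such genes, among them Cd2, Cd5, Cd28, Lat, Thy1 and Bcl11b, 19 had a UMI in T cells of the none library and 18 in each diabetic library, and all of those were at a higher level as CPM (UMIs scaled to a common library total) in T cells than in the other barcodes of that library. With barcodes thinned to 500 UMIs, 19, 9 and 11 of the 19 were still detected in a larger share of T cells. The median of these genes was detected in 34.6% of T cells and 0.244% of other barcodes in the none library, in 35.7% and 0.0604% in the diabetic sedentary library, and in 36.4% and 0.0631% in the diabetic exercise library. The genes with the largest geometric mean fold of T cells over other barcodes across the 3 libraries were Ccl5 (47.9-fold), a chemokine of effector T cells, the interleukin 7 receptor Il7r (39.2-fold), the GTPase Rac2 (35.0-fold), the receptor chain Trbc1 (35.0-fold), Ms4a4b (31.3-fold), Cd52 (29.4-fold) and the leukocyte phosphatase Ptprc (29.4-fold). Each was computed on CPM with 10 added; of 2719 genes measured, 56.5% were past a 2-fold excess in T cells, so these folds describe the selection and support nothing further.

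Members near the threshold were few. The 6 rule genes summed to a median of 7 UMIs per T cell in the none library (3 to 66), 10 in the diabetic sedentary library (3 to 24) and 7 in the diabetic exercise library (3 to 19). Exactly 3 such UMIs were carried by 11, 1 and 1 T cells, and 11, 1 and 1 barcodes lay just outside with 2 UMIs from 2 genes. RNA of other cell types was present in some members. The 13 macrophage genes summed to 107, 46 and 2 UMIs over the T cells of the libraries in the same order, at 0 to 48, 0 to 36 and 0 to 1 per cell. Of the 13 genes 8, 3 and 2 were seen, with Adgre1, Csf1r and Cd68 at 0 throughout. Apoe was among those seen, with a log2 ratio of 1.73 in diabetic sedentary over none and -6.14 in diabetic exercise over diabetic sedentary. The 11 ductal genes summed to 369, 93 and 10 UMIs, at 0 to 194, 0 to 85 and 0 to 2 per cell. Their part in the differences below was not tested.

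T cells were a far smaller share of the diabetic libraries. They were 1.73% (1.48 to 2.02) of filtered barcodes in the none library, 0.121% (0.0660 to 0.202) in the diabetic sedentary library and 0.0693% (0.0346 to 0.124) in the diabetic exercise library. The share was 14.4-fold lower in diabetic sedentary than in none, a ratio of 0.0696 with an interval of 0.0372 to 0.120, and the ratio of diabetic exercise to none was 0.0400 (0.0196 to 0.0735). The ratio of diabetic exercise to diabetic sedentary was 0.575, and its interval of 0.236 to 1.36 covered equality.

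**Figure D1:**
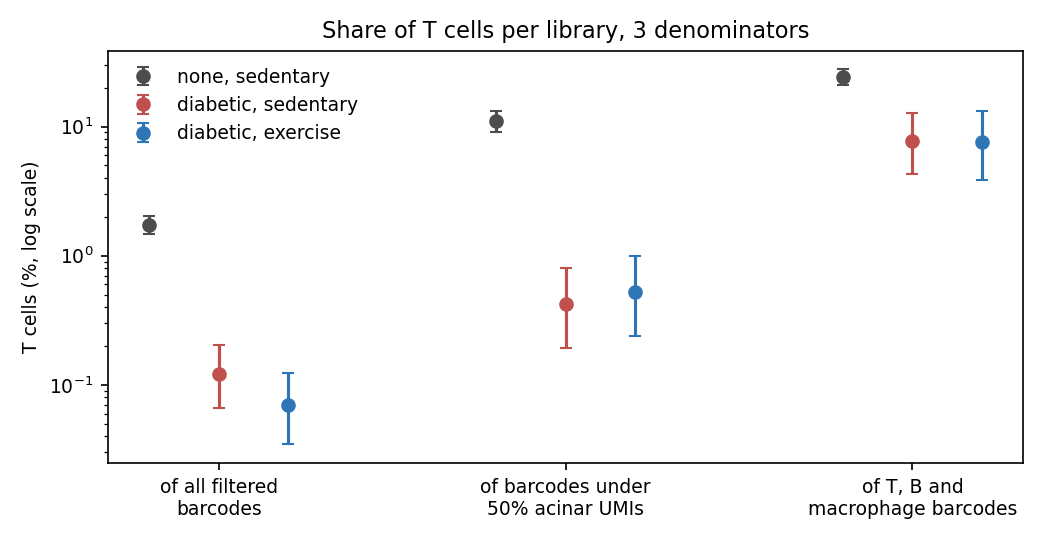
Share of T cells per library on a log axis in percent, over 3 denominators, with exact 95% binomial intervals for counting error. The none library lies above both diabetic libraries under each denominator, while the diabetic pair overlap.

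The denominator changed the size of the difference. Among barcodes with under 50% acinar UMIs, T cells were 106 of 966 (10.97%) in none, 9 of 2123 (0.424%) in diabetic sedentary and 9 of 1721 (0.523%) in diabetic exercise. Among T cells, B cells and macrophages together they were 24.2%, 7.78% and 7.59%, so that the ratio of diabetic sedentary to none was 0.321 (0.172 to 0.555). B cells, which were chosen by matching marker rules, numbered 206, 2 and 7, and macrophages numbered 292, 164 and 127. The plot of T cell shares by denominator shows these values.

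Genes of lymphoid tissue gave mixed values across the libraries. Over all filtered barcodes, UMIs of Fcer2a, carried by mature follicular B cells, summed to 109 in none, 0 in diabetic sedentary and 2 in diabetic exercise. Glycam1, made by the high endothelial venules of lymph nodes, summed to 910, 0 and 0 UMIs, with 836 of the 910 in 1 barcode. Ccl21a, a chemokine of lymphatic vessels and lymph node stroma, did not follow that order, at 294, 756 and 35 UMIs. These 3 genes were chosen after their values were seen. Whether lymphoid tissue was taken along in the dissected pancreas was not tested.

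The naive genes Lef1, Ccr7 and Dapl1 were detected in T cells of the none library and in almost none of the diabetic libraries, whereas Il7r, of the same gene list, was found in 93 of 159, 10 of 14 and 7 of 11. Lef1 was detected in 61 of 159 T cells of the none library (38.4%), in 1 of 14 in diabetic sedentary and in 0 of 11 in diabetic exercise. Ccr7 was detected in 65, 0 and 0 T cells, with 113, 0 and 0 UMIs. Dapl1, a gene of resting naive T cells, was detected in 41, 0 and 0 T cells.

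At least 1 of Lef1, Ccr7 and Dapl1 was carried by 104 of 159 T cells in none (65.4%, 57.5 to 72.8). The numbers were 1 of 14 in diabetic sedentary (7.14%, 0.181 to 33.9) and 0 of 11 in diabetic exercise (0 to 28.5%). Ccr7 and Dapl1 ranked 1 and 3 among the named genes lowest in diabetic sedentary over none. Shares of this group of 3 genes therefore describe the data and test nothing. At least 2 of the 3 were carried by 50, 0 and 0 T cells. In barcodes made mostly of acinar RNA, which should lack these genes, the share with any of the 3 was 0.479%, 0.0212% and 0.0142%, at median depths of 4301.5, 5673 and 1953 UMIs. With each T cell thinned to 500 UMIs, the numbers were 28 of 159, 0 of 14 and 0 of 11, with no cell left out. Among T cells with under 50% acinar UMIs, a set chosen after seeing the data, they were 79 of 106, 0 of 9 and 0 of 9. A count of 0 limits the share of cells with a UMI, not of cells that express a gene.

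**Figure D2:**
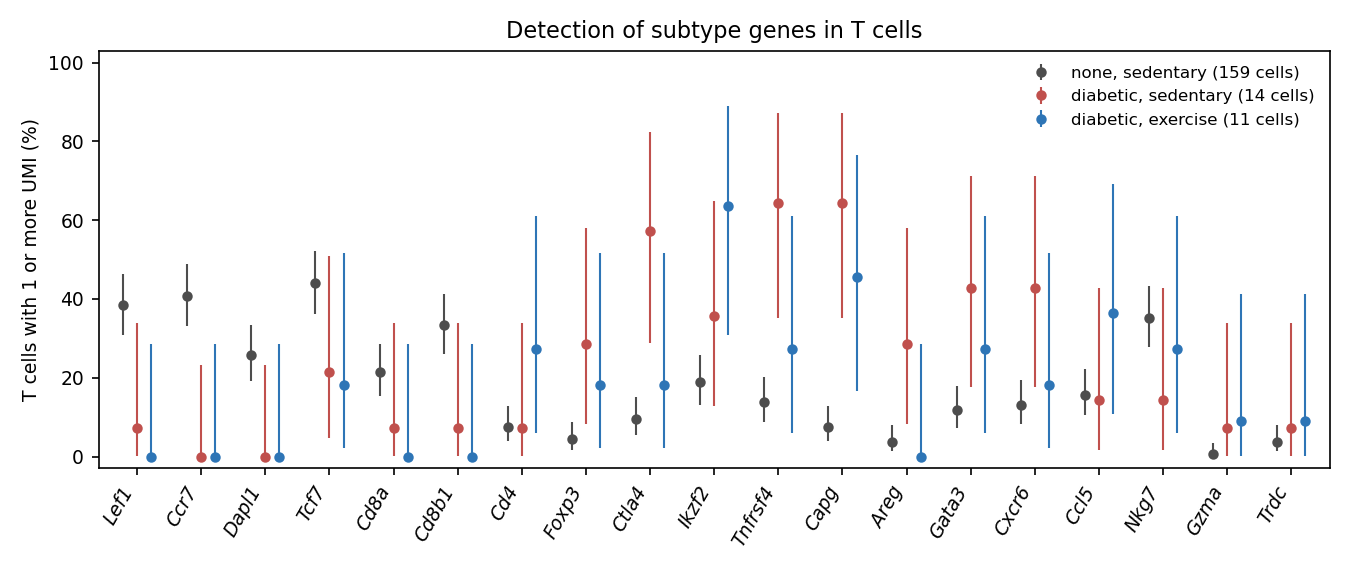
Percent of T cells with at least 1 UMI of each of 19 subtype genes, with exact 95% binomial intervals, for 159, 14 and 11 T cells. Lef1, Ccr7, Dapl1 and Cd8b1 are highest in the none library, while Foxp3, Ctla4, Tnfrsf4 and Capg are highest in the diabetic sedentary library.

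CD8 T cells, the lineage of cytotoxic T cells, followed the same order. Cd8a or Cd8b1 without Cd4 was detected in 57 of 159 T cells in none (35.8%, 28.4 to 43.8), 2 of 14 in diabetic sedentary (14.3%, 1.78 to 42.8) and 0 of 11 in diabetic exercise (0 to 28.5%), so both diabetic intervals still overlapped that of none. Cd8b1 summed to 125, 1 and 0 UMIs. Cd4, the helper lineage coreceptor, was poorly captured: it was detected without Cd8 in 12, 1 and 3 T cells, with 19, 1 and 3 UMIs. No T cell carried both, and 90 of 159, 11 of 14 and 8 of 11 carried neither, so most cells could not be placed in a lineage at this depth.

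In the none library the CD8 T cells carried the naive genes. Of the 57 T cells with Cd8a or Cd8b1, 52 carried at least 1 of the 3 naive genes, against 104 of all 159 T cells of the library. Ccr7 was detected in 31 of the 57 and in 34 of the 102 T cells without CD8. Igfbp4, another gene of the naive list, was detected in 13 and 22 of them and so differed little in share. Nkg7, a granule gene of cytotoxic cells, was detected in 37 of the 57, and Ccl5 in 13. Median UMIs were 3833 in T cells with CD8 and 3171 in those without.

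Granzyme genes were scarce, while Nkg7 was more widely detected. Nkg7 was detected in 56 of 159, 2 of 14 and 3 of 11 T cells, and Prf1, which encodes perforin, in 10, 0 and 2. Gzma, a granzyme, was found in 1 T cell of each library, with 5 UMIs in none, 2 in diabetic sedentary and 6 in diabetic exercise, and Gzmb was at 0 UMIs in all T cells. Ccl5 was detected in 25, 2 and 4 T cells. The Gzma cell of diabetic sedentary carried 27 UMIs of Ccl5, 3 of Trac and 3 of Trbc2, and the Gzma cell of diabetic exercise carried 21 of Ccl5, 12 of the adaptor Tyrobp and 4 of Klrk1 but no Cd3d, Cd3e, Cd3g or Trac UMI. Natural killer cells share this makeup, and 12 genes of their list summed to 64 UMIs in none (0 to 27 per T cell), 7 in diabetic sedentary (0 to 6) and 37 in diabetic exercise (0 to 30), with the defining receptor gene Ncr1 at 4, 0 and 2 UMIs. No Cd3 UMI was seen in 5, 0 and 3 of the T cells. Whether these are natural killer cells was not tested.

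Some regulatory T cell genes were detected in a larger share of the few diabetic T cells than of those in none. Foxp3 was detected in 7 of 159 T cells in none (4.40%, 1.79 to 8.86), 4 of 14 in diabetic sedentary (28.6%, 8.39 to 58.1) and 2 of 11 in diabetic exercise (18.2%, 2.28 to 51.8), so the intervals of none and diabetic sedentary overlapped at their ends. The Foxp3 UMIs were 9, 11 and 3, with 6 of the 11 in 1 cell. In acinar-rich barcodes Foxp3 was detected in 1 of 7928, 2 of 9433 and 1 of 14115. Ctla4, an inhibitory receptor, was detected in 15, 8 and 2 T cells, and Tnfrsf4 (OX40) in 22, 9 and 3. No Foxp3 UMI was seen in 11, 5 and 2 of the Ctla4 cells.

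Over all 3 libraries the 13 Foxp3 cells carried some regulatory genes widely and others in few cells. Ikzf2, which encodes the factor Helios, was detected in 12 of 13 Foxp3 cells and 30 of 171 others, and Tnfrsf4 in 11 of 13 and 23 of 171. Ctla4 was found in 7 of 13 and 18 of 171, and Il2ra, the high-affinity interleukin 2 receptor chain, in 5 of 13 and 7 of 171. Ccl5, Nkg7, Cd8a and Cd8b1 were at 0 in all 13, against 31, 61, 35 and 54 of the 171. Both sets had similar depth, with medians of 3446 and 3456 UMIs. In the none library 5 of the 7 Foxp3 cells also carried at least 1 of the 3 naive genes, against 1 of 4 in diabetic sedentary and 0 of 2 in diabetic exercise.

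**Figure D3:**
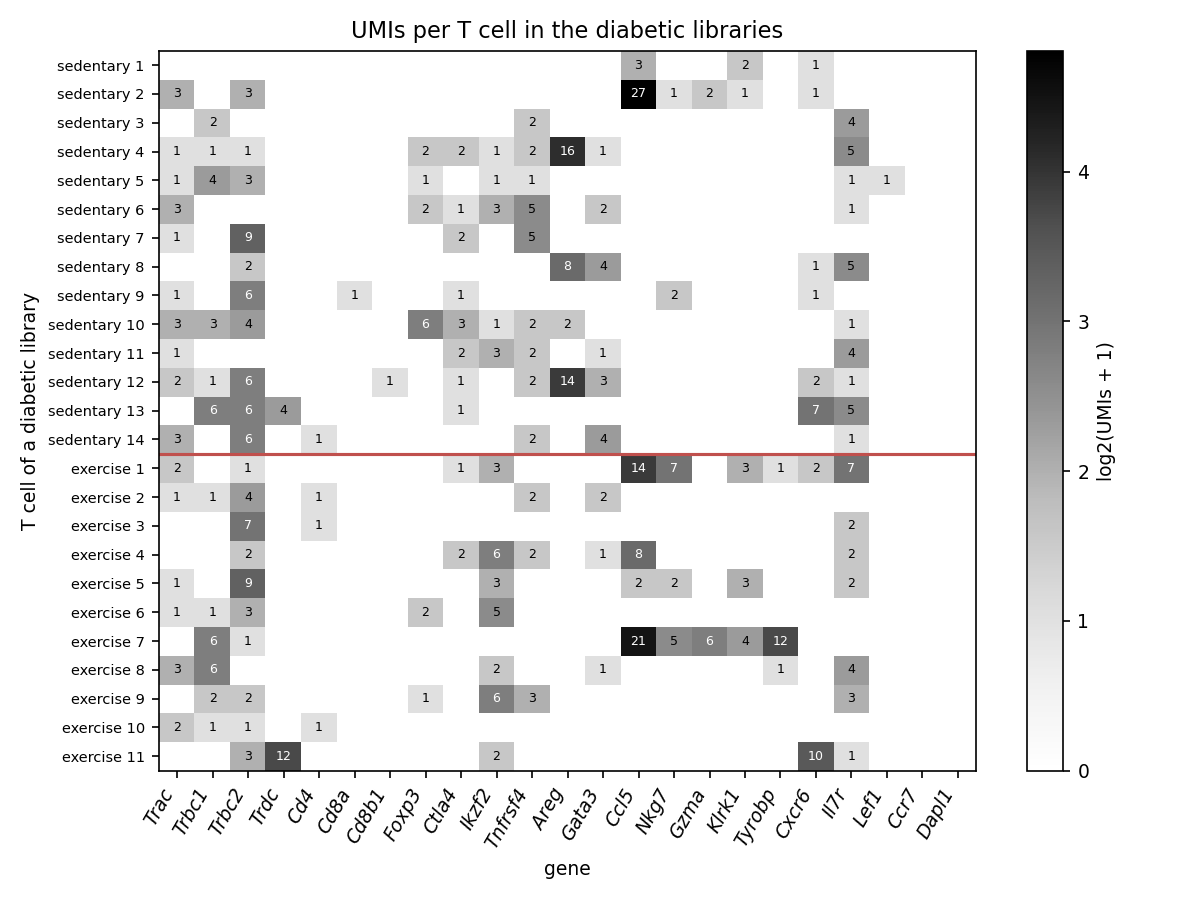
UMIs of 23 genes in each of the 25 T cells of the diabetic libraries, with the count printed in each cell and shade on a log2 scale of UMIs plus 1. Foxp3 appears in 4 sedentary and 2 exercise cells, large Ccl5 counts lie in other cells, and Ccr7 and Dapl1 are at 0 in all 25.

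The tissue repair growth factor Areg came from few cells. It was found in 6 T cells of none, 4 of diabetic sedentary and 0 of diabetic exercise, with 24, 40 and 0 UMIs, and the 4 sedentary cells held 16, 14, 8 and 2 of them. Of those 4 cells, 2 also carried Foxp3 and 3 carried Gata3, the factor of type 2 helper cells, regulatory T cells of tissue and group 2 innate lymphoid cells. Every Areg cell had a Cd3 UMI. The 10 genes of the innate lymphoid list, which shares Areg with the regulatory list, summed to 104 UMIs in none (0 to 20 per T cell), 78 in diabetic sedentary (0 to 20) and 11 in diabetic exercise (0 to 3). Its defining cytokines Il5 and Il13 had 7 and 8 UMIs in T cells of none, and the diabetic T cells had 0 of either.

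Gamma or delta chain genes were detected in T cells of each library. Trdc, the delta chain gene, was detected in 6 T cells of none, 1 of diabetic sedentary and 1 of diabetic exercise, with 15, 4 and 12 UMIs, and at least 2 gamma or delta chain genes were carried by 5, 1 and 2 cells. Some Trdc cells of none also carried UMIs of Trac or Trbc2. Whether the Trdc cells are gamma delta T cells was not tested. The Trdc cells of the diabetic libraries carried the most Cxcr6 UMIs of any T cell there, 7 and 10. Il17a, the cytokine made by a gamma delta subset, had 6 UMIs in 1 Trdc cell of none and 0 elsewhere. Trbc1 and Trbc2, near-identical beta chain genes whose 3-prime reads can be split wrongly between them, were both seen in 61, 5 and 5 cells, Trbc2 alone in 78, 5 and 5, and Trbc1 alone in 11, 1 and 1.

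Gene levels were compared on UMIs summed over the T cells of a library, as CPM scaled by edgeR's TMM method. A gene was measured with at least 20 UMIs over both libraries, and called past a ratio of 2 in either direction. In diabetic sedentary over none, 2518 genes were measured, of which 4.17% were called higher and 36% lower (40.2% in either direction). The shares were 3.83% and 9.81% of 418 genes (13.6%) in diabetic exercise over diabetic sedentary, and 4.06% and 37.2% of 2488 genes (41.2%) in diabetic exercise over none. The split depends on the UMI minimum and on the scaling. T cells of none summed to 617042 UMIs against 62205 and 42202, so many genes reached 20 UMIs through none alone. Genes low in none could reach it only through high counts in a diabetic library. Counts of list members below share this limit. With plain library totals the median log2 ratio of all genes in diabetic sedentary over none moved from -0.63 to 0.14 and the calls from 105 higher and 906 lower to 366 and 313, in diabetic exercise over diabetic sedentary from 16 and 41 to 36 and 25, and in diabetic exercise over none from 101 and 925 to 636 and 283. List medians are therefore also given relative to the median of all measured genes, which is the same under both scalings.

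Cell cycle genes and then naive and recirculating genes had the lowest medians among lists with at least 3 measured genes in diabetic sedentary over none. Of 14 members 12 were measured, 0 were past 2-fold higher and 9 past 2-fold lower (7 with plain totals), and their median log2 ratio was -2.31, or -1.67 relative to all genes; with the 2 members at 0 set to their bound it was -2.30. Lef1 had 108, 1 and 0 UMIs, and its ratio was 0.0537 (0.00135 to 0.306). Ccr7 was at 280 CPM in none and 0 UMIs in diabetic sedentary, at least 6.49-fold lower against a floor of 3 counts in that library. Tcf7 had 113, 3 and 2 UMIs in the 3 libraries, and Satb1, a chromatin organiser of resting T cells, had 137, 3 and 4. Other members differed little: Klf2, a quiescence factor that maintains S1pr1, had 261, 37 and 56 UMIs and a ratio of 0.822 (0.566 to 1.16), and Il7r had 192, 28 and 21 UMIs and a ratio of 0.846 (0.548 to 1.26).

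Regulatory T cell genes lay at the other end. Of 15 members 8 were measured, 6 were past 2-fold higher under either scaling and 0 lower, with a median log2 ratio of 1.67, or 2.30 relative to all genes. Foxp3, with 9 UMIs in none and 11 in diabetic sedentary, and Capg reached the UMI minimum only with their diabetic sedentary UMIs. For them a high diabetic count was in part the condition for being measured. Ctla4, Tnfrsf4, Tnfrsf18 and Areg reached the minimum in none alone, with 20, 51, 41 and 24 UMIs. Capg, an actin-capping protein, had 19 UMIs in none, 23 in diabetic sedentary and 12 in diabetic exercise, for a ratio of 7.02 (3.66 to 13.6) in diabetic sedentary over none. Tnfrsf4 had 51, 23 and 7 UMIs and a ratio of 2.62 (1.53 to 4.36). Foxp3 had a ratio of 7.09 (2.67 to 19.4) and Ctla4 of 3.77 (1.72 to 7.97). The exceptions were Izumo1r, the folate receptor of regulatory and anergic T cells, at 0.566 (0.147 to 1.56), and Ikzf2, at 0.696 (0.306 to 1.39). Their direction turned with plain totals, to log2 ratios of 0.11 for Izumo1r and 0.32 for Ikzf2, and both intervals covered equality. The rise was not limited to the regulatory list. The measured genes of the innate lymphoid list, Gata3, Rora and the shared Areg, had log2 ratios of 1.66, 1.61 and 3.26.

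Part of the tissue residency list was also higher. Of 13 residency genes 6 were measured, 3 of them past 2-fold higher (6 with plain totals), with a median of 0.95, or 1.58 relative to all genes. Bhlhe40, a factor of tissue-resident T cells, had 19, 16 and 11 UMIs, a log2 ratio of 2.30. It too reached the UMI minimum only with its diabetic sedentary UMIs. Rgs1, which dampens chemokine receptor signals, had 31, 19 and 19 UMIs, a log2 ratio of 1.84. Cxcr6 had 38, 13 and 12 UMIs and a ratio of 1.99 (0.970 to 3.81), which covered equality, and 10 of the 12 lay in 1 cell. Among the 10 genes with the largest ratio that met the naming rule (at least 20 UMIs in at least 5 T cells of the higher library, and at least 2 times the level of its other barcodes) were S100a4 (6.38-fold, 3.32 to 12.3) and S100a6 (3.69-fold, 2.72 to 4.97), calcium-binding proteins of effector and memory cells, Id2 (4.95-fold, 2.91 to 8.37), a factor of effector lymphocytes, Ahnak (4.83-fold, 2.53 to 9.13) and Tnfaip3 (4.90-fold, 3.10 to 7.72), an inhibitor of NF-kappa B. The cytotoxic list was lower in part. Of 20 genes 6 were measured, 0 past 2-fold higher and 3 lower under either scaling. The median log2 ratio was -1.59, or -0.95 relative to all genes. With the 1 member at 0 set to its bound the list median was -0.63, no lower than the -0.63 of all measured genes. Nkg7 had 113, 3 and 14 UMIs and the protease Ctsw 60, 1 and 11.

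**Figure D4:**
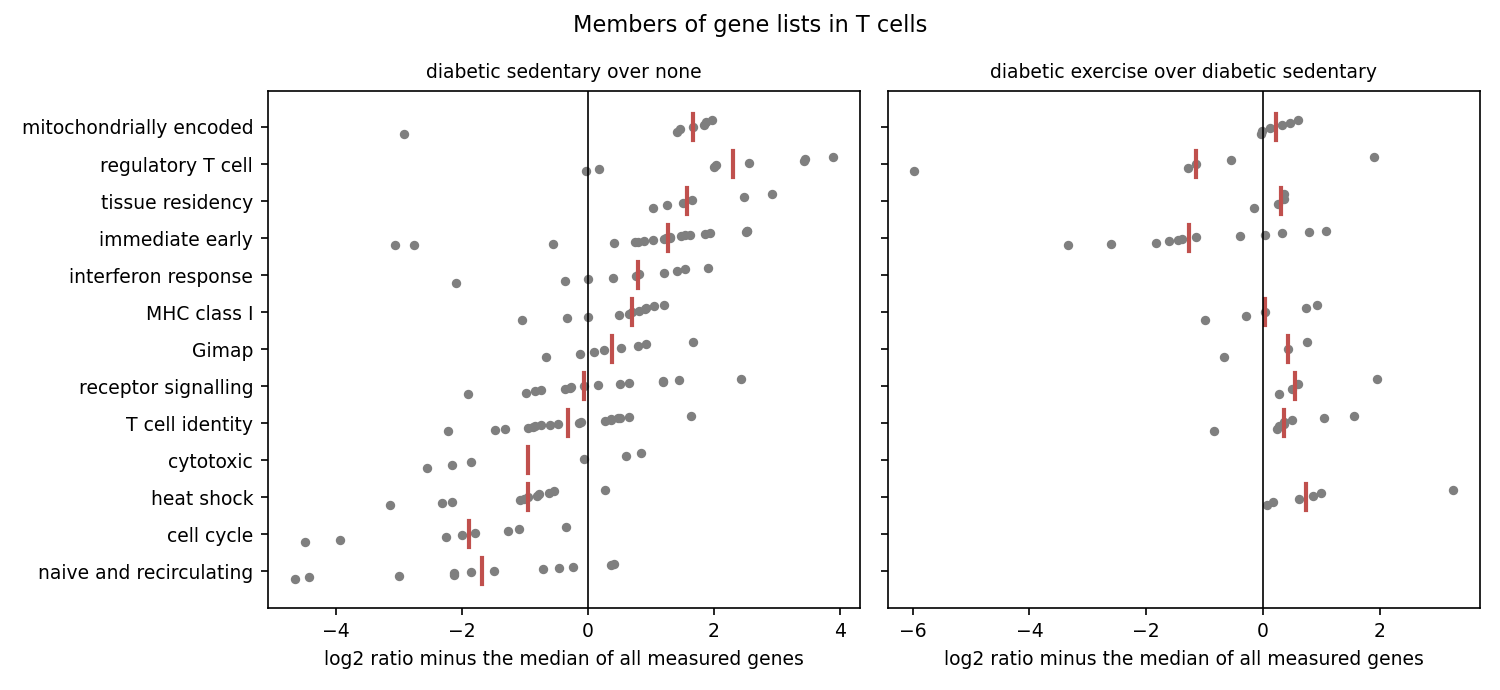
Log2 ratio of each measured member of 13 gene lists in T cells, minus the median of all measured genes, for diabetic sedentary over none (left) and diabetic exercise over diabetic sedentary (right). Points are genes and red lines are list medians, drawn where at least 3 members were measured; on the left the naive and recirculating median lies at -1.67 and the regulatory T cell median at 2.30.

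Cell cycle genes were lower. Of 13 members 8 were measured and 7 were past 2-fold lower (6 with plain totals), with a median of -2.53, or -1.94 with the 3 members at 0 set to their bound. Stmn1, a microtubule regulator of dividing cells, had 101, 0 and 1 UMIs, and Pclaf, which binds the replication clamp, had 68, 0 and 0, in 6 cells. Both genes were thus measured through none alone. These UMIs came from few cells: 7 of 159 T cells in none had at least 3 UMIs of 9 cycle genes, against 0 of 14 and 0 of 11, and 5 of the 7 carried each of Ikzf2, Tnfrsf4, Tnfrsf18 and Gata3. The 7 cells were deep, with a median of 7904 UMIs against 3403.5 in the other T cells of the library. The exact interval for 0 of 14 reaches 23.2% and covers the 4.40% of none, so a difference in the share of such cells was not detectable.

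Heat shock genes were lower in diabetic sedentary than in none. Of 11 heat shock genes measured, 10 were past 2-fold lower (3 with plain totals), with a median of -1.58, or -0.94 relative to all genes, and -1.41 with 2 members at 0 set to their bound. The cytosolic chaperone Hsp90ab1 had 719, 39 and 34 UMIs in T cells and a ratio of 0.315 (0.222 to 0.434) in diabetic sedentary over none, and a log2 ratio of -0.88 with plain totals, while in all other barcodes it stood at 183, 204 and 222 plain CPM. The chaperone Hspa8 had 296, 21 and 25 UMIs and a ratio of 0.412 (0.251 to 0.641).

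Immediate early genes encode short-lived factors that respond to activation, stress and tissue handling. Of 20 measured, 5 were past 2-fold higher and 3 lower (14 and 2 with plain totals), with a median of 0.63, or 1.27 relative to all genes. Junb was at 543 TMM-scaled CPM in none, 1998 in diabetic sedentary and 607 in diabetic exercise. On plain CPM it was at 355, 2235 and 829 in T cells and 202, 349 and 389 in all other barcodes, so the log2 ratio of diabetic exercise to none was 0.18 with TMM and 1.24 with plain totals. The ratio of diabetic sedentary to none was 3.68 (2.96 to 4.57), and 41 of its 139 UMIs in diabetic sedentary lay in 1 cell. Nfkbia, the inhibitor of NF-kappa B, had 75, 48 and 10 UMIs and a ratio of 3.71 (2.53 to 5.40). Jun went the other way at 152, 2 and 5 UMIs; it was chosen after its values were seen.

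In diabetic exercise over diabetic sedentary, where 11 T cells were set against 14, the immediate early list had the lowest median of the lists with at least 3 measured genes. Of 24 genes 12 were measured, 0 were past 2-fold higher and 7 lower (1 and 6 with plain totals), and their median was -1.36, or -1.26 relative to all genes. Junb had 139 and 35 UMIs, in 12 of 14 and 7 of 11 T cells, and a ratio of 0.304 (0.203 to 0.442). Nfkbia had 48 and 10 UMIs and a ratio of 0.251 (0.113 to 0.503). Btg2, an antiproliferative gene, had 82 and 24 UMIs and a ratio of 0.353 (0.214 to 0.562). Fos, with 40 and 39 UMIs, had a ratio of 1.18 (0.736 to 1.87). Dusp1, a phosphatase of stress signalling, was higher at 29 and 48 UMIs, a log2 ratio of 0.99 (ratio interval 1.23 to 3.28), so the members did not share 1 direction. The deepest T cell of diabetic sedentary held 19.8% of the T cell UMIs of that library and is part of all its summed levels. Of its UMIs 73.0% were acinar, and it carried 5 UMIs of the rule genes. Leaving out the deepest T cell of each library brought the median of the immediate early list to -0.27 relative to all genes. That median was over 9 measured genes, 4 of them past 2-fold lower, and this alternative was chosen after seeing the data.

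**Figure D5:**
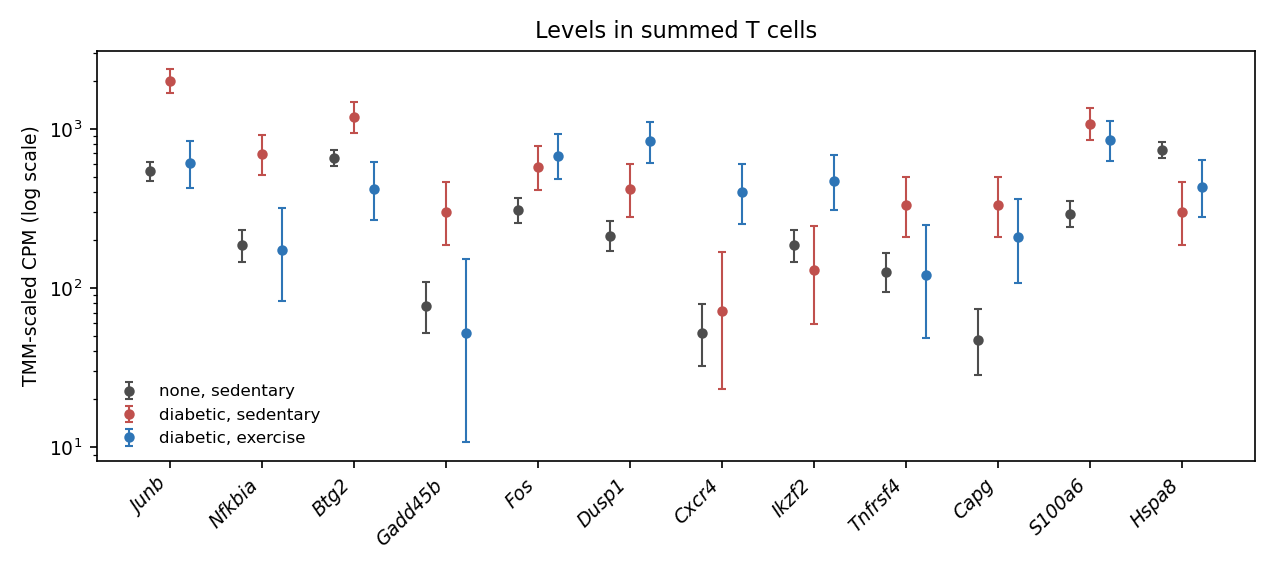
Level of 12 genes in the summed T cells of each library, as TMM-scaled CPM on a log axis with exact 95% Poisson intervals for counting error. Junb, Nfkbia and Btg2 are highest in diabetic sedentary and Cxcr4 and Ikzf2 in diabetic exercise.

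The chemokine receptor Cxcr4 was the gene with the largest increase in the exercise library among the 72 that the naming rule allowed. Ikzf2 and Il2rb ranked 2 and 3. All were picked by their ratio, and the intervals given for them do not allow for that choice. Cxcr4 had 5 UMIs in 3 of 14 T cells in diabetic sedentary and 23 UMIs in 10 of 11 in diabetic exercise, a ratio of 5.55 (2.06 to 18.7). In none it had 21 UMIs in 19 of 159 T cells. Ikzf2 had 9 UMIs in 5 T cells and 27 in 7, a ratio of 3.62 (1.65 to 8.74). Il2rb, a chain of the interleukin 2 and 15 receptors, had 11 and 20 UMIs and a ratio of 2.19 (1.001 to 5.06). In diabetic exercise 9 of its 20 UMIs lay in 1 cell.

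The regulatory list did not move with Ikzf2. Of its 5 measured members 1 was past 2-fold higher and 3 lower (2 with plain totals), with a median of -1.24. Tnfrsf4 had 23 and 7 UMIs and a ratio of 0.367 (0.133 to 0.883). Tnfrsf18 (GITR) had 18 and 6 UMIs and a ratio of 0.402 (0.131 to 1.06), which covered equality. Areg had 40 and 0 UMIs, at least 11.1-fold lower against the floor of 3 counts in the exercise library, although the 40 came from 4 cells. Residency genes differed little, with 0 of 4 past 2-fold in either direction and Rgs1 at 19 UMIs in both.

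Diabetic exercise over none uses the same none library as the first comparison, so its values are given side by side and not as a second observation. Naive and recirculating genes were 0 higher and 8 lower of 12 measured, at -1.73 relative to all genes, and residency genes 5 higher and 0 lower of 6, at 1.91. Cxcr4 had a ratio of 7.66 (4.05 to 14.6) and Rgs1 of 4.29 (2.29 to 7.83). The regulatory list, 2 higher and 2 lower of 7, was mixed.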

How the data were processed

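Single-cell RNA of 3 pancreas libraries was analysed. The authors deposited a filtered matrix of raw UMI counts per library, without normalization; the matrix headers name Cell Ranger 6.1.2 and the submitters' processing notes name Cell Ranger 7.1.0. For the alignment, the genome build was not given in the sources used here. All 55450 gene identifiers and symbols matched GENCODE M21 (GRCm38). Doublets were not removed: Scrublet marked 0% of barcodes at its automatic threshold, which is no working call, so the top 5% of scores were left out as an alternative. T cell barcodes were selected by the rule at the start, and their counts summed per library. Shares have exact Clopper-Pearson intervals. Ratios use TMM-scaled CPM (edgeR 4.0.16, R 4.3.3) with exact conditional Poisson intervals, and log2 ratios a prior count of 0.5; size factors of DESeq2 1.42.0 and plain totals were alternatives. TMM was the main scaling, and its factors moved with the summed depth of these unequal sums. No test was run, since each group is 1 library. Code was checked on simulated data.

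Named genes were the members of the T cell lists, up to 4 of the most abundant members of other lists, the 10 largest changes per direction among genes with at least 20 UMIs in 5 cells, none with over 50% of the UMIs, and at least 2 times the level of other barcodes (mitochondrial, ribosomal protein and haemoglobin genes left out), and the 20 genes with the largest fold over other barcodes. Members and lists were chosen with earlier results of these data known. Other steps used Python 3.11.15, scanpy 1.11.5 and scipy 1.17.1. A pair of list genes is not reported here and was left out of the lists.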

Additional observations from a re-analysis of the deposited data

How the results depend on the processing

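No paired analysis was possible because each group is 1 library, and no replicate could be left out. Of the alternatives to the 3 T cell share ratios 28 moved by less than their interval; counted of T, B and macrophage barcodes, the ratios to none were 0.321 for diabetic sedentary and 0.313 for diabetic exercise. Detection shares depend on depth. Thinned to 500 UMIs, shares in none were 0.629% for Cd4 only, 11.3% for Cd8 only, 0% for Foxp3 and 7.55% for Lef1; in diabetic sedentary they were 0%, 0%, 7.14% and 0%, and Cd4 only was 0% in diabetic exercise. Thinned to 1000 UMIs, the none shares were 3.77%, 20.1%, 0.629% and 21.4%; Cd4 only, Lef1 and Gzma were 0% in diabetic sedentary, and Cd4 only, Foxp3 and Gzma 0% in diabetic exercise. Thinned to 300 UMIs outside the acinar list, the none shares were 1.26%, 13.2%, 1.26% and 8.18%, with Gzma at 0%; in diabetic sedentary Foxp3 was 7.14% and Cd4 only, Lef1 and Gzma 0%, and in diabetic exercise Cd4 only, Foxp3 and Gzma were 0%. Under 50% acinar UMIs, Gzma in none and Lef1 in diabetic sedentary were 0%. Gzma in diabetic exercise was 0% with a Cd3 and a receptor chain UMI required, with 5 UMIs from 3 genes, and without the deepest T cell. Counts of genes past 2-fold depend on scaling and on the UMI minimum. For diabetic sedentary over none, the higher count was 366 with plain totals, 187 with DESeq2 size factors, 366 with totals outside the acinar list, 339 at 10 UMIs, 172 as a mean over cells, 215 with acinar RNA subtracted and 6 thinned to 500 UMIs; the lower count was 313, 598, 310, 1528 at 10 UMIs and 206 thinned. For diabetic exercise over diabetic sedentary, the higher count was 36 with plain totals, 87 at 10 UMIs, 25 with acinar RNA subtracted, 6 with a Cd3 and a receptor chain UMI required, 0 thinned and 7 without the deepest T cell; the lower count was 25 with plain totals, 126 at 10 UMIs, 7 thinned and 25 under 50% acinar UMIs. For diabetic exercise over none, the higher count was 636 with plain totals, 186 with DESeq2 size factors, 485 with totals outside the acinar list, 344 at 10 UMIs, 213 with acinar RNA subtracted and 2 thinned; the lower count was 283, 351 with totals outside the acinar list, 1627 at 10 UMIs and 213 thinned. Among log2 ratios of named genes 405 alternatives moved by less than their interval, 30 by more and 4 reversed, all when thinned to 500 UMIs: Gadd45b (-0.13) and H2afx (0.16) in diabetic sedentary over none, and Stk17b (-0.28) and Btg2 (0.013) in diabetic exercise over diabetic sedentary. The cause was not tested beyond the smaller number of UMIs in thinned cells.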

Other observations

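MHC class I genes, which present peptides to CD8 T cells, were near equal in T cells of none and diabetic sedentary with TMM scaling. Of 11 measured in diabetic sedentary over none, 0 were past 2-fold higher and 1 lower, with a median log2 ratio of 0.06 (0.84 with plain totals). All measured genes had a lower median there, at -0.63 (0.14 with plain totals). B2m, the shared light chain, had 392, 68 and 54 UMIs in none, diabetic sedentary and diabetic exercise, and a ratio of 1.01 (0.766 to 1.30) in diabetic sedentary over none. H2-D1 was lower in diabetic exercise than in diabetic sedentary, with 43 against 111 UMIs and a ratio of 0.467 (0.320 to 0.670). The interferon-induced gene Ifi27l2a had 211, 5 and 1 UMIs in T cells, and in all other barcodes it stood at 38.8, 6.09 and 14.6 CPM, so its order of none above diabetic sedentary was not limited to T cells.

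Mitochondrially encoded genes were higher in part in the diabetic T cells. Of 13 genes 7 were measured in diabetic sedentary over none, 4 past 2-fold higher and 1 lower (6 and 1 with plain totals), and the same counts held in diabetic exercise over none. The lower gene was mt-Nd3, with 102, 1 and 0 UMIs. The 13 genes made up 10392, 33454 and 41041 plain CPM of T cell UMIs. mt-Nd1, a subunit of complex I, had a ratio of 2.05 (1.81 to 2.31) in diabetic sedentary over none in T cells. On plain CPM mt-Nd1 stood at 1681, 5884 and 8436 in T cells, and in all other barcodes at 811, 2834 and 9325 CPM, so the same order was present outside T cells. Ribosomal protein genes went the other way between the none and diabetic sedentary T cells, at 186070, 119347 and 157718 plain CPM.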
